A study of Mus musculus with 2 samples.

Results

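The liver makes most of the proteins of the complement and blood-clotting systems, and 38 of their genes are described here across 4 pools of mouse liver RNA. They were taken from a list of complement, clotting and fibrinolysis genes made by the liver, and each was found through the RefSeq accession of its array probes. These genes are 38 of the 20284 genes named on the array, read by 49 probes. Of the 38, 17 belong to complement and 21 to clotting and fibrinolysis.

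CREBH knockout (KO) mice, null for CREBH on a C57B6J background, were set against wild-type (WT) C57B6J mice. The 4 groups were KO mice fasted for 24 h, WT mice fasted for 24 h, KO mice fed ad lib and WT mice fed ad lib. Total liver RNA of each group was pooled before labelling, and the sources used here do not give the number, age or sex of the mice behind a pool. Each feeding state had 1 two-colour array, with the KO pool in the Cy5 channel and the WT pool in the Cy3 channel, so each group was measured once, with no replicate and 0 dye swaps. No test could therefore be run, and every difference below is a description of these pools by its size.

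CREBH, the product of Creb3l3, is a transcription factor of hepatocytes that is held in the membrane of the endoplasmic reticulum and freed by cleavage when that organelle is stressed and in fasting. It became known for switching on hepatic acute-phase genes, among them that of serum amyloid P. Complement is a chain of plasma proteases that recognition proteins start on microbial surfaces, that meets in the cleavage of C3 and then C5, and that ends in a pore, the membrane attack complex. Clotting is a second such chain, in which the extrinsic and the contact-started intrinsic arms meet at factor X, thrombin turns fibrinogen into fibrin, and plasmin later dissolves it.

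By the flags of the scanner software all 38 genes were well above background in all 4 pools, as were 11290 of the named genes. Levels are log2 normalized signals of 1 probe per gene, the brightest one, and are compared between pools and never between genes. Of 59305 gene spots per array, 45.8% (KO) and 45.9% (WT) were well above background on the fasted array, and 42.9% (KO) and 39.9% (WT) on the fed array. For 202 probes printed 10 times the median SD of a log2 ratio between spots was 0.08 to 0.09 in each comparison. It measures spots of 1 array, or of 1 array pair where fasted and fed are compared, and leaves out how mice, pools and labellings vary. Creb3l3 itself was 4.21-fold lower in the fasted KO pool than in the fasted WT pool (log2 -2.07) and 1.84-fold lower in the fed KO pool than in the fed WT pool (-0.88). The labels do not say whether its probe targets the part that was deleted. Of 8 hepatocyte markers 7 had a probe, and all of those were well above background in every pool. In whole liver, fewer cells of a type and less RNA per cell cannot be told apart.

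Loss of CREBH went with small differences only among these genes in both feeding states. In fasted liver the log2 ratio of KO over WT lay between -0.46 for C8a (1.38-fold lower) and 0.45 for C6 (1.37-fold higher), with a median of -0.10. The dimmer probe of C8a gave -0.10 fasted, so this lower end rests on its brightest probe. A dimmer probe of C8g lay beyond that end, at -0.53 fasted. In fed liver it lay between -0.36 for Serping1 (1.28-fold lower) and 0.33 for F11 (1.26-fold higher), with a median of -0.05. No member reached a difference of 1.5-fold in either state. Over all genes measured in fasted liver, 1.26% were at least 1.5-fold higher and 1.48% lower in KO, around a median of 0.01. In fed liver the shares were 1.33% higher and 1.41% lower, around the same median. A count of 0 of 38 lies close to such shares, so it is not a result about these genes. These ratios rest on the loess correction, which removes a trend of the Cy5 over Cy3 ratio with brightness. When each array was centred on its measured genes in place of loess, fasted KO liver had 7 members at least 1.5-fold above WT and fed KO liver 11, with none below. Taken relative to the median of all measured genes, 4 of them still passed in fasted and 8 in fed liver. The share of all genes past 1.5-fold was not counted in this setting. Centred in this way, the medians of the 38 genes were 0.34 fasted and 0.42 fed, against 0.07 over all measured genes in each state.

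Among the genes of the lectin pathway, which starts complement on microbial sugars, the ratios of the mannose-binding lectin genes were -0.27 (Mbl1) and -0.09 (Mbl2) in fasted liver and -0.04 and -0.35 in fed liver. Their proteases Masp1 and Masp2 were at 0.15 and -0.03 fasted and at -0.05 and -0.17 fed. C3, the protein on which the starting routes meet, was at 0.33 fasted and 0.13 fed. Its probe was printed 10 times, and the spots gave 0.33 ± 0.03 on the fasted array and 0.13 ± 0.04 on the fed array (SD between spots). On the fasted array every one of these C3 spots lay between 0.29 and 0.38. A second, dimmer C3 probe gave 0.20 fasted and -0.01 fed. The spots thus fix the ratio of 1 probe only, and the spread between pools is unknown. C4b, a subunit of the classical and lectin convertases, was at -0.28 and -0.26, and Cfb, the protease of the alternative convertase, at 0.00 and -0.01. C4b has a near-identical copy, C4a, for which the array had no named probe, so its probe may read both.

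In the membrane attack complex the fasted ratios of KO over WT were -0.46 (C8a), -0.41 (C8g), -0.30 (Hc, the mouse gene of C5), -0.03 (C9), 0.02 (C8b) and 0.45 (C6). The fed ratios were -0.05 (C8a), -0.19 (C8g), 0.16 (Hc), -0.09 (C9), 0.14 (C8b) and 0.26 (C6). C6, which binds cleaved C5 and starts the pore, had log2 signals of 11.55 in the fasted KO pool and 11.10 in the fasted WT pool, and of 11.90 in the fed KO pool and 11.64 in the fed WT pool. It was the member with the highest KO signal relative to WT in fasted liver. Inhibitors of complement ranged from -0.36 to 0.10 fasted and from -0.36 to 0.11 fed. Serping1, the C1 inhibitor, which also blocks the contact proteases, was at -0.36 in both states. Cfi, the protease that inactivates C3b, was at -0.27 fasted and -0.17 fed, while its cofactor C4bp stood at 0.10 and 0.07 and Vtn, vitronectin, at 0.05 and 0.11.

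The clotting genes were as close between genotypes. In the extrinsic and common pathway the fasted ratios were -0.35 for F7, which starts clotting with tissue factor, -0.21 for F10, -0.14 for F5 and -0.06 for F2, prothrombin. The fed ratios were -0.18, -0.16, 0.09 and 0.07 in the same order. In the intrinsic and contact pathway F11 was at 0.28 fasted and 0.33 fed. F9, F12, Klkb1 (plasma prekallikrein) and Kng1 (kininogen) lay between -0.20 and 0.07 fasted and between -0.13 and 0.19 fed. A dimmer probe of Kng1 lay outside both ranges, at -0.39 fasted and -0.26 fed. Of the fibrinogen chains Fga and Fgg were below 0 in both states (-0.19 and -0.26 fasted, -0.20 and -0.27 fed) and Fgb above 0 (0.24 and 0.10). Clotting inhibitors ranged from -0.13 (Serpind1, heparin cofactor II) to 0.31 (Pros1, protein S) fasted and from -0.21 to 0.14 fed. Serpinc1, antithrombin, was at 0.09 fasted and -0.01 fed. The fibrinolysis genes were all below 0. Cpb2, a carboxypeptidase that protects fibrin from plasmin, was at -0.42 fasted and -0.19 fed, Plg, plasminogen, at -0.10 and -0.21, and Serpinf2, the plasmin inhibitor, at -0.10 and -0.29.

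**Figure D1:**
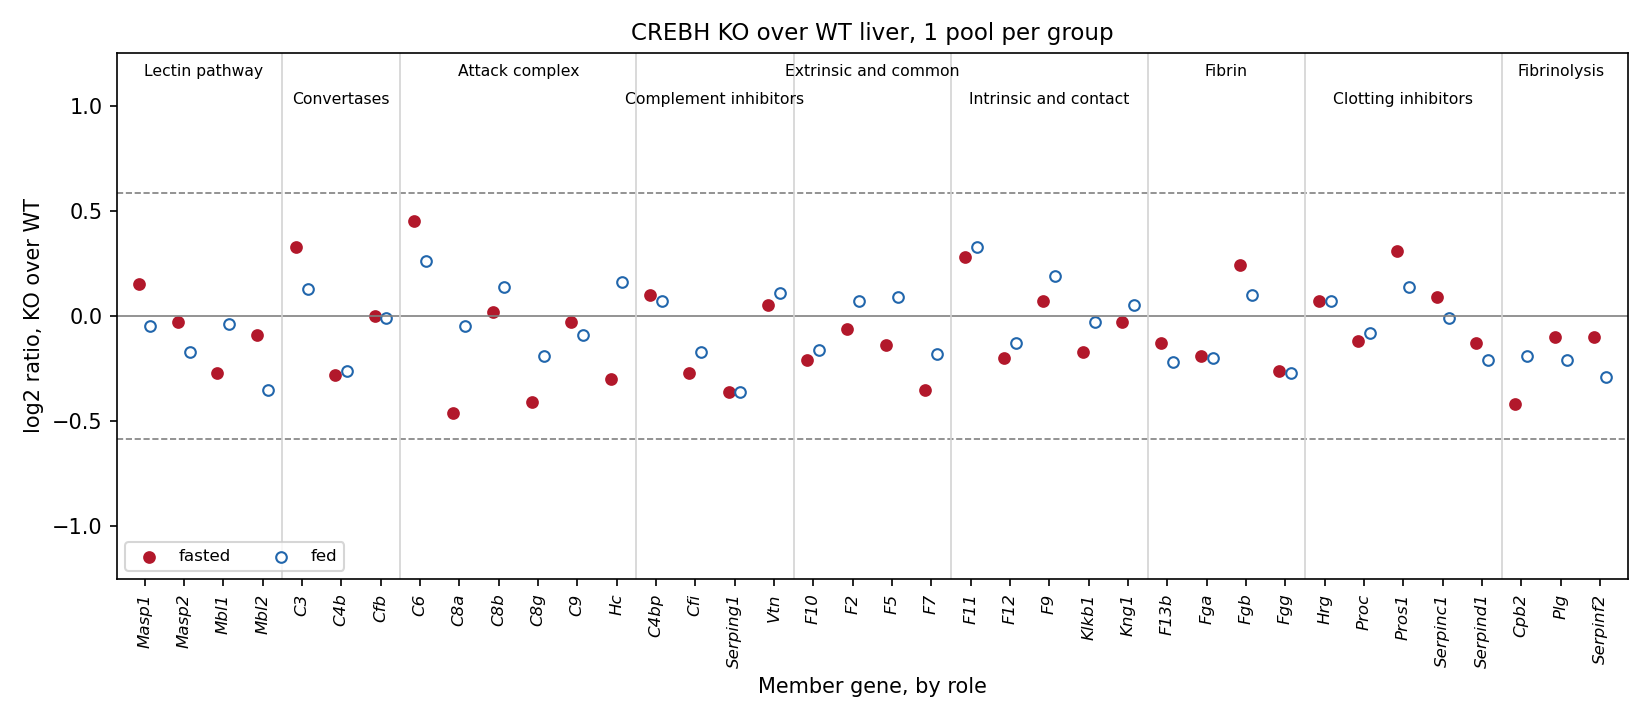
Log2 ratio of CREBH KO over WT liver signal for the 38 genes, grouped by role on the horizontal axis, with filled points for the fasted and open points for the fed array (1 pool per group, no error bars). Dashed lines mark 1.5-fold, and every point lies between them, the furthest being C8a (-0.46) and C6 (0.45) in fasted liver.

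Between fasted and fed liver these genes differed by up to 2.08-fold, against up to 1.38-fold between the genotypes. Both comparisons of fasted with fed liver run across the arrays, use the same pair of arrays and were made comparable by normalization of the average intensity. In KO liver 6 of 38 genes (15.8%) had a signal at least 1.5-fold lower in the fasted pool and 2 (5.26%) one that much higher, where 6.47% of all measured genes were lower and 7.16% higher. Among the 7012 measured genes at least as bright as the dimmest member the shares were 8.09% lower and 9.21% higher. In WT liver 2 genes (5.26%) were lower and 2 (5.26%) higher, where 5.66% of all measured genes were lower and 6.14% higher. The WT counts lie near the background. The medians of the 38 genes were -0.03 in KO and -0.07 in WT, against 0.01 over all measured genes in both. No member was at least 2-fold apart in KO (2.59% of all genes higher, 2.10% lower), and C9 alone was in WT (2.36% higher, 1.92% lower). Of the 38 genes, 30 had the same sign in both genotypes. Both ratios use the same pair of arrays, and the share over all genes was not counted.

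The genes of the membrane attack complex were lower in the fasted pool of both genotypes. All 6 had fasted over fed ratios below 0 in KO and in WT, with medians of -0.73 in KO and -0.46 in WT, and 4 of them were at least 1.5-fold lower in KO and 1 in WT. Over all measured genes 6.47% were that much lower in KO and 5.66% in WT, and 51.7% and 51.4% lay above 0. C9, whose copies make the wall of the pore, had log2 signals of 10.42 in the fasted KO pool and 11.42 in the fed KO pool, and of 10.45 in the fasted WT pool and 11.51 in the fed WT pool. Both fasted pools thus lay about equally far below both fed pools, by a log2 ratio of -1.0 in KO and of -1.06 in WT (2.08-fold). Hc had 15.03 in the fasted KO pool and 15.88 in the fed KO pool, and 15.33 in the fasted WT pool and 15.72 in the fed WT pool. The fasted pools were again the low ones, by a log2 ratio of -0.85 in KO and of -0.39 in WT (1.31-fold).

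The C8 protein joins its alpha, beta and gamma chains, from 3 genes, and inserts the growing complex into the membrane. C8a had 12.40 in the fasted KO pool and 13.23 in the fed KO pool, and 12.86 in the fasted WT pool and 13.29 in the fed WT pool, ratios of -0.83 and -0.43. C8b had 13.18 in the fasted KO pool and 13.80 in the fed KO pool, and 13.17 in the fasted WT pool and 13.67 in the fed WT pool, ratios of -0.62 and -0.50. C8g had 14.84 in the fasted KO pool and 15.38 in the fed KO pool, and 15.25 in the fasted WT pool and 15.57 in the fed WT pool, ratios of -0.54 and -0.32. For all 3 chains the fasted pools lay below the fed pools, with C8a furthest in KO. C6 was at -0.34 in KO and -0.54 in WT. The brightest probes carry this order: a dimmer probe of C8a gave -0.14 in KO and 0.19 in WT, and one of C8g 0.00 and 0.22. With the mean over the probes of each gene in place of the brightest, all 6 ratios were still below 0 in both genotypes, with medians of -0.55 in KO and -0.45 in WT, 3 and 1 of them at least 1.5-fold lower.

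The other complement genes showed less. C3 was at 0.13 in KO and -0.08 in WT, C4b at -0.19 and -0.18, and Cfb at -0.05 and -0.06. Of the lectin pathway genes Masp2 was at -0.37 in KO and -0.51 in WT, Masp1 at -0.14 and -0.34, Mbl1 at 0.10 and 0.33, and Mbl2 at -0.04 and -0.29. The 3 probes of Masp2 disagreed, the dimmest being at 0.48 in KO and -0.19 in WT. By their brightest probes, inhibitors lay between -0.32 (C4bp) and 0.10 (Serping1) in KO, and between -0.35 (C4bp) and 0.17 (Cfi) in WT. A dimmer probe of Serping1 lay outside both ranges, at 0.38 in KO and 0.48 in WT. Over all 17 complement genes 13 were below 0 in KO and 14 in WT, against 9 and 8 of the 21 clotting and fibrinolysis genes. Of all measured genes 51.7% were above 0 in KO and 51.4% in WT.

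**Figure D2:**
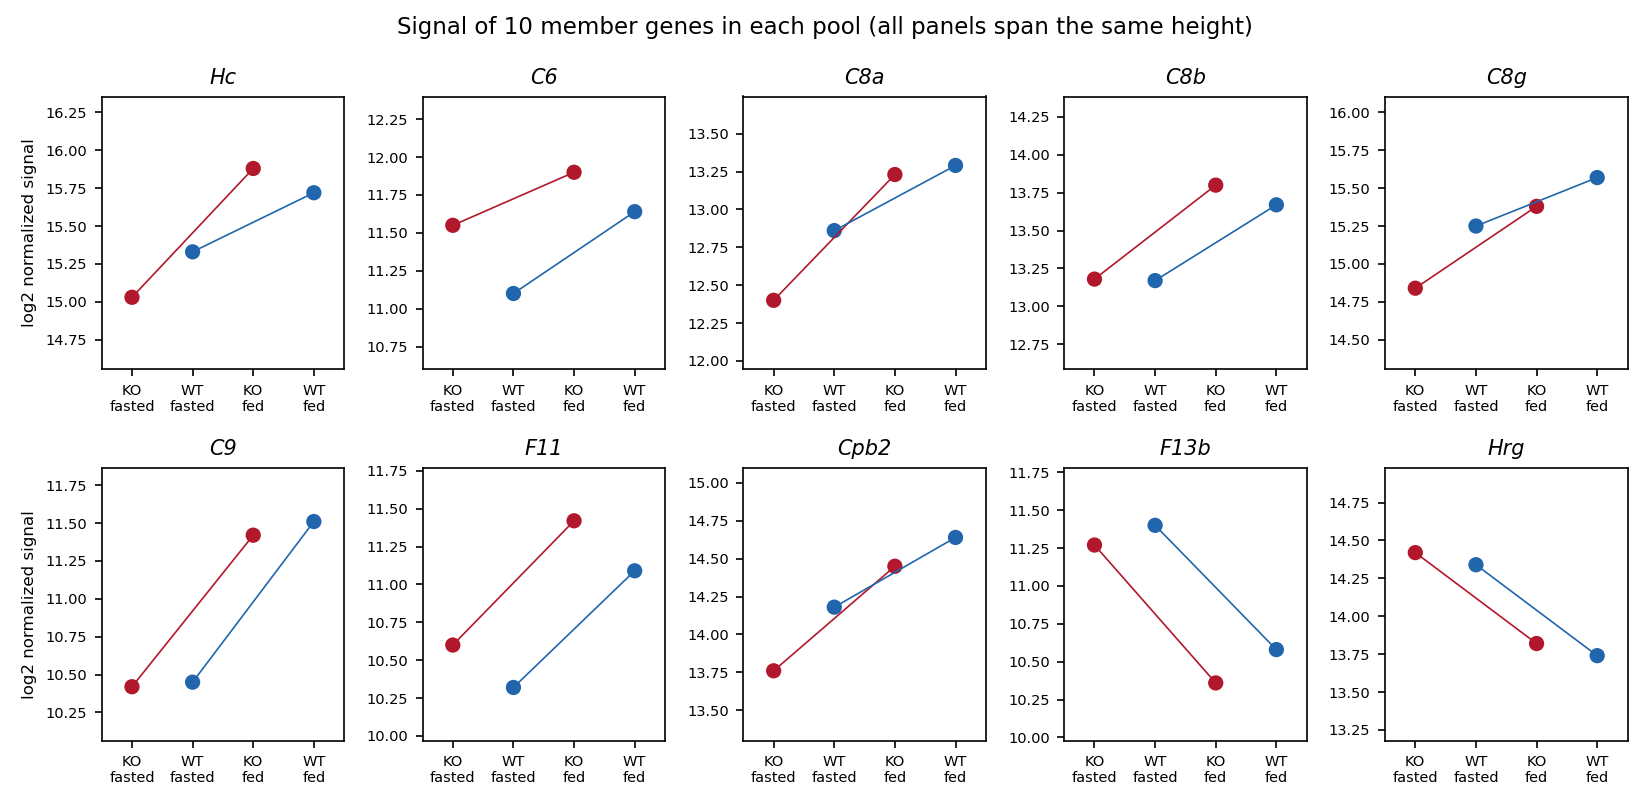
Log2 normalized signal (vertical axis, each panel spanning the same height) of the 6 attack complex genes, F11, Cpb2, F13b and Hrg in the 4 pools, with KO in red and WT in blue. Each point is 1 pool and lines join the pools of a genotype. The fasted pool of a genotype lies below its fed pool in 8 panels and above it for F13b and Hrg.

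In clotting, F11 was lower and F13b and Hrg were higher in fasted liver of both genotypes. F11, the zymogen of factor XI, which amplifies clotting by cutting factor IX, had 10.60 in the fasted KO pool and 11.42 in the fed KO pool, and 10.32 in the fasted WT pool and 11.09 in the fed WT pool. The difference was 1.77-fold in KO (-0.82) and 1.71-fold in WT (-0.78), with the KO signal above the WT signal in each state. F13b, the carrier subunit of the factor XIII that cross-links fibrin, had 11.27 in the fasted KO pool and 10.36 in the fed KO pool, and 11.40 in the fasted WT pool and 10.58 in the fed WT pool. Its ratios, 0.91 in KO (1.88-fold) and 0.82 in WT (1.76-fold), were the highest of the 38 genes in both genotypes. Hrg, histidine-rich glycoprotein, which binds heparin and plasminogen, had 14.42 in the fasted KO pool and 13.82 in the fed KO pool, and 14.34 in the fasted WT pool and 13.74 in the fed WT pool. It lay 1.52-fold higher in both genotypes (0.60), just inside the 1.5-fold limit of 0.58, and Pros1, at 0.58 in KO and 0.42 in WT, lay just outside it. With an offset of 10 in the background correction or with scanner-processed signals, and relative to all genes, Pros1 passed the limit in KO and Hrg did not.

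The probe of F13b was printed 10 times, which shows how closely its spots repeat within 1 array pair. Its spots gave a fasted over fed ratio of 0.91 ± 0.06 in KO, from 0.84 to 1.02, and of 0.82 ± 0.04 in WT, from 0.75 to 0.89 (SD between spots). In no spot was the ratio under 1.5-fold. The KO over WT ratio over the same spots was -0.13 ± 0.08 in fasted and -0.22 ± 0.07 in fed liver, both sets lying below 0. All spots share the same normalization, which this spread leaves out. Over the alternatives given at the end, not taken relative to all genes, the fasting ratio of F13b ran from 0.91 to 1.5 in KO. In WT it ran from 0.81 to 1.41. Its KO over WT ratio ran from -0.14 to 0.16 fasted and from -0.27 to 0.06 fed.

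**Figure D3:**
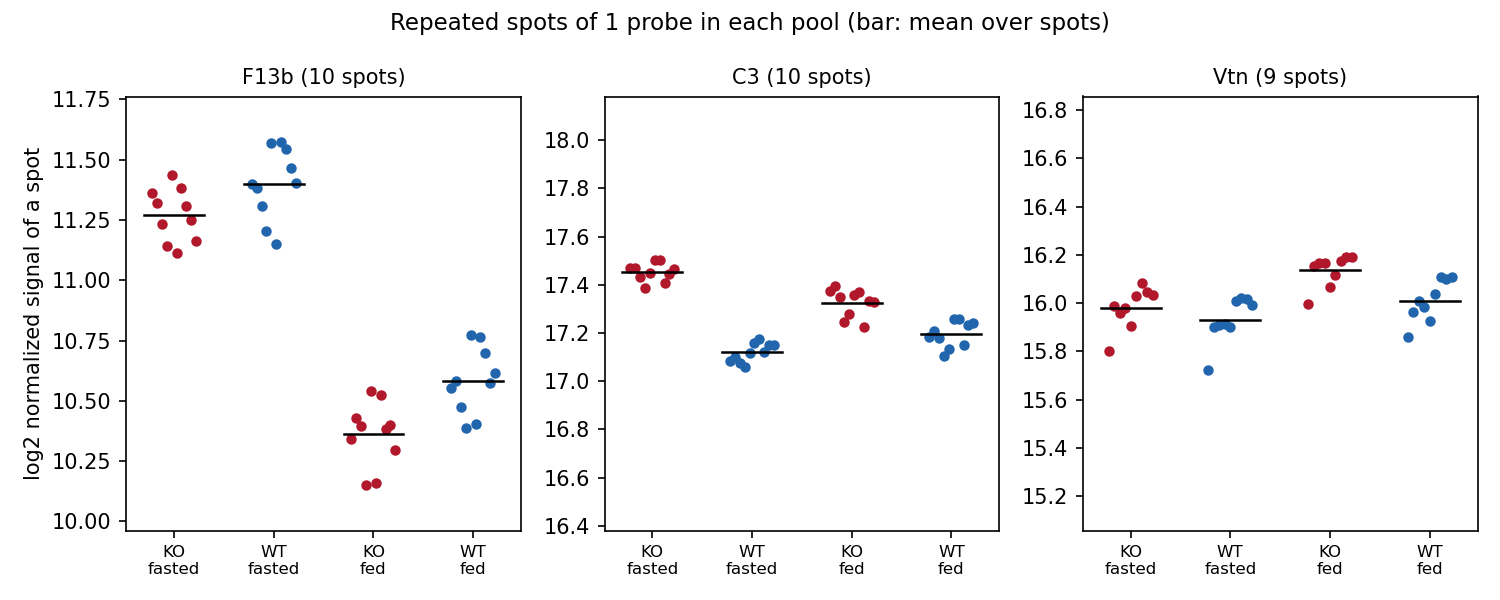
Log2 normalized signal (vertical axis) of each repeated spot of the F13b, C3 and Vtn probes in the 4 pools, with KO in red, WT in blue and a bar at the mean over spots. Points are technical repeats within 1 array and not separate animals. For F13b the spots of the fasted pools (from 11.11) lie above all those of the fed pools (to 10.77), while for Vtn the pools overlap.

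Cpb2 was lower in fasted liver, with 13.76 in the fasted KO pool and 14.45 in the fed KO pool, and 14.18 in the fasted WT pool and 14.64 in the fed WT pool. Only the KO ratio (-0.69, 1.62-fold) passed 1.5-fold, the WT ratio being -0.46, and the gap between them had no test. F10 was at -0.53 in KO and -0.48 in WT and F5, the cofactor of factor X, at 0.22 and 0.45. A dimmer probe of F10 gave -0.75 in KO, past 1.5-fold, and -0.50 in WT. F2 and F7 lay at -0.10 and -0.14 in KO, and both at 0.03 in WT. F9, F12, Klkb1 and Kng1 ranged from -0.02 to 0.19 in KO and from 0.05 to 0.30 in WT. The fibrinogen genes showed Fga at 0.39 and 0.37, Fgb at 0.08 and -0.06, and Fgg at 0.04 and 0.03, so that of the 3 chains only the alpha chain stood apart from 0. A dimmer probe of Fga gave 0.61 in KO, past 1.5-fold, and 0.38 in WT. Serpinc1, Serpind1, Proc (protein C), Plg and Serpinf2 all lay between -0.16 and 0.06 in both genotypes.

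**Figure D4:**
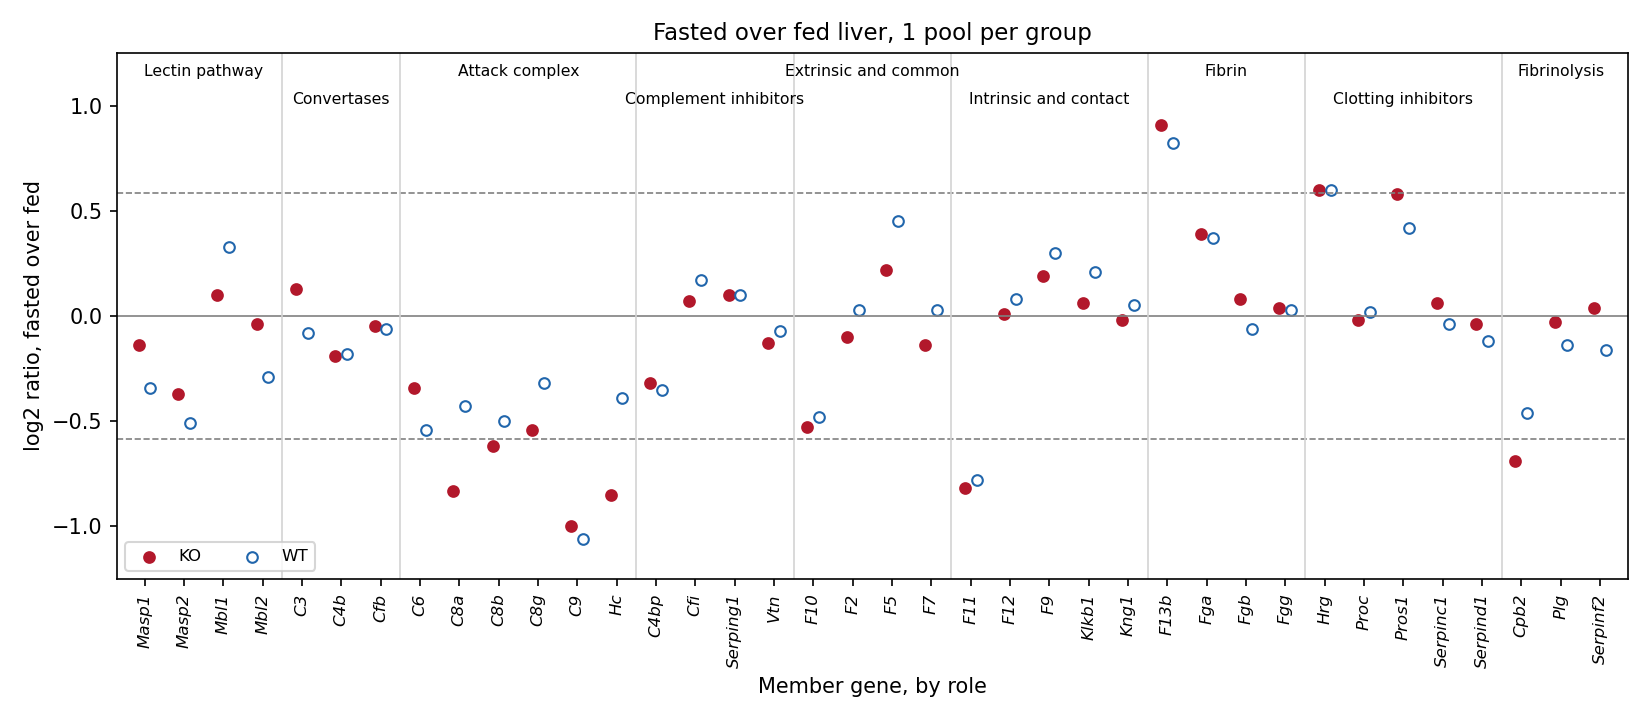
Log2 ratio of fasted over fed liver signal for the 38 genes, grouped by role on the horizontal axis, with filled points for KO and open points for WT (1 pool per group, no error bars). Dashed lines mark 1.5-fold. The 6 attack complex genes lie below 0 in both genotypes, F11 near -0.8 in both, and F13b stands highest at 0.91 in KO and 0.82 in WT.

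C9, F11, F13b and Hrg passed 1.5-fold in both genotypes, and to show the sequence before genes that differed with fasting the 250 bases before the start of each are given. They come from the RefSeq promoter table of build GRCm38.p6, which held 31 promoters for 30 of the 38 genes. They are written 5′ to 3′ on the strand of the gene, with capitals at matches to 4 short motifs searched on both strands, and in these 4 no match overlaps another.
C9 promoter, chr15:6445096-6445345, plus strand: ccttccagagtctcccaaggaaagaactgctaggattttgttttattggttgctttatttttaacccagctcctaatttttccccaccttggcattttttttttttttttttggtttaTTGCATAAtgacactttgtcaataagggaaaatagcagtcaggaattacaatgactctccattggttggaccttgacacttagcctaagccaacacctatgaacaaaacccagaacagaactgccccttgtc
F11 promoter, chr8:45262032-45262281, minus strand: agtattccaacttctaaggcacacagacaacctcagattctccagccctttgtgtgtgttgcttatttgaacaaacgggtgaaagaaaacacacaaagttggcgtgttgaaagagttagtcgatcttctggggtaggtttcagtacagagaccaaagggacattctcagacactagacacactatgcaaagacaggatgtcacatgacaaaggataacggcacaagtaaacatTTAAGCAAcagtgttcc
F13b promoter, chr1:139501457-139501706, plus strand: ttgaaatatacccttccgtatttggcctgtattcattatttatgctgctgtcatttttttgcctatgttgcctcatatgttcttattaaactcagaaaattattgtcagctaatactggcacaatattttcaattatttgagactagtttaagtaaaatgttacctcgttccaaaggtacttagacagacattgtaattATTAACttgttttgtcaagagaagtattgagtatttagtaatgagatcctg
Hrg promoter, chr16:22950822-22951071, plus strand: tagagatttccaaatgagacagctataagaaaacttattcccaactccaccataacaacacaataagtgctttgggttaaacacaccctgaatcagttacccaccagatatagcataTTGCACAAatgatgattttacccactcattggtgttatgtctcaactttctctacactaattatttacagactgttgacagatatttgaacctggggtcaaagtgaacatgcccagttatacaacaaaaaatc

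The motifs were TGACG, the core of the element that CREB-family factors bind, TTGCNNAA for C/EBP factors, GTTAAT for HNF1 and CAAAGTC for HNF4. Each was looked for in windows of 300 bases, from 250 before to 50 after the start. C9, F11 and Hrg each held 1 match to TTGCNNAA, first bases at -132, -17 and -133 from the start, and F13b held 1 match to GTTAAT at -51. F13b also held TGACG at 43 past the start, outside the stretch shown. TGACG stood in 7 of the 31 member promoters (22.6%), close to the 20.8% of all 32851 promoters in the table. TTGCNNAA stood in 10 member promoters (32.3%) and in 10.8% of all promoters, GTTAAT in 9 (29.0%) and in 7.10%, and CAAAGTC in 1 (3.23%) and in 4.44%. Among the 6 attack complex genes GTTAAT lay in the windows of Hc, C8a and C8b, and TTGCNNAA in that of C9. A match is a string of letters and no evidence that a factor binds there.

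The KO over WT ratio of fasted liver minus that of fed liver sets the genotype difference of one feeding state against that of the other, and a dye effect of a gene cancels in it. It had a median of -0.01 over the 38 genes, as over all measured genes, and ranged from -0.46 for Hc (1.37-fold) to 0.25 for Mbl2 (1.19-fold). None of the 38 passed 1.5-fold, against 2.25% of all measured genes higher and 1.98% lower, so this count too lies near the background. C8a followed Hc at -0.41, and its dimmer probe gave -0.33. The dimmest of the 3 Masp2 probes gave 0.67, past 1.5-fold and outside that range, where the brightest gave 0.14. F5, Mbl1 and Cpb2 were each at -0.23, C8g at -0.22, and C3, Masp1, C6 and Serpinf2 at 0.19 to 0.20. For Hc the fasted KO pool was the lowest of the 4 and the fed KO pool the highest, with both WT pools between them. With arrays centred on the measured genes in place of loess, and relative to all genes, Hc alone passed 1.5-fold, on the lower side.

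Several of these genes are neighbours. Fgg, Fga and Fgb adjoin on chromosome 3, C8b and C8a on chromosome 4, and F7 and F10, and separately F11 and Klkb1, on chromosome 8. On chromosome 16 a single gene lies between Hrg and Kng1. By their brightest probes C8b and C8a were both lower in fasted liver, while the dimmer probe of C8a gave -0.14 in KO and 0.19 in WT. The pairs named next lay further apart. F11 was at -0.82 in KO and -0.78 in WT beside Klkb1 at 0.06 and 0.21, and Hrg at 0.60 in both beside Kng1 at -0.02 and 0.05. F10 was at -0.53 and -0.48 beside F7 at -0.14 and 0.03, and Fga at 0.39 and 0.37 beside Fgg at 0.04 and 0.03. Fgb, at 0.08 and -0.06, lay near Fgg.

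Of 57 further genes of these pathways, many made outside hepatocytes, 53 had a probe and 41 were well above background in all 4 pools. None was 1.5-fold apart between KO and WT in either state, with medians of 0.05 over 43 measured genes in fasted liver and -0.03 over 41 in fed liver, a count close to the background of 1.26% to 1.48% per direction. In KO liver the fasted pool was the higher one by at least 1.5-fold for 10 of 42 (23.8%) and the lower one for 2, and in WT liver 2 of 42 (4.76%) were higher and none lower. Over all measured genes 7.16% were higher and 6.47% lower in KO, and 6.14% and 5.66% in WT, so the WT count lies near the background. The genes named next were picked after their values were seen, since none passed 2-fold. Among those higher in KO were the recognition genes C1qa (0.81), C1qb (0.72), Fcna (0.98), Colec10 (0.63) and Colec11 (0.77), the complement regulator Cd55 (0.63), Thbd (0.59), and the protease inhibitors Mug1 (0.72) and Mug2 (0.67). Colec11 (0.78) and Fcna (0.60) passed 1.5-fold in WT as well. Lower in KO were Lman1 (-0.90), the cargo receptor for factors V and VIII, and Adamts13 (-0.77), the protease of von Willebrand factor. Mug1 and Mug2 are close paralogs that a probe may not separate.

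C1q and ficolin A are made by macrophages, and markers of Kupffer cells, the macrophages of the liver, were higher beside them in fasted KO liver. In WT liver C1qa, C1qb and C1qc were at 0.40, 0.41 and 0.09 and Fcna at 0.60 for fasted over fed. All 7 measured Kupffer cell markers of 8 were above 0 for fasted over fed KO liver, with a median of 0.52, and 3 of 7 in WT, with a median of -0.03. The log2 of their summed signal was 13.96 in the fasted KO pool, 13.89 in the fasted WT pool, 13.50 in the fed KO pool and 13.95 in the fed WT pool, so the fed KO pool was the low one. Marco, a scavenger receptor among them, was at 0.17 in KO and -1.02 in WT. Their part in the C1q and Fcna values was not tested. Endothelial markers had fasting medians of 0.50 in KO and 0.28 in WT, with Kdr alone below 0 (-0.74 and -0.58). Hepatocyte markers had medians of -0.02 and -0.06. Of 6 measured stellate cell markers 5 were below 0, with medians of -0.39 in KO and -0.33 in WT and the collagen gene Col1a1 lowest (-1.42 and -1.31). Dcn was above 0 (0.22 and 0.27). The log2 of the summed stellate signal was higher fasted than fed, at 13.14 against 13.04 in KO and 13.04 against 12.88 in WT. The 2 measured neutrophil markers were S100a8, at 0.80 in KO and -0.13 in WT, and S100a9, at 0.05 and -0.55. Of the platelet markers Itga2b, Gp9 and Gp1bb were not above background in any pool.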

How the data were processed

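Per the labels' protocols each array took a CREBH KO pool labelled with Cy5 and a WT pool labelled with Cy3. Per the file headers, both arrays shared 1 slide and 1 scan, and the deposited scanner files were written by Agilent Feature Extraction (10.10.1.1). Median spot and background intensity values were deposited without normalization. The deposited processed intensity values were background-subtracted and dye-normalized, and the deposited log10 ratios are Cy5 over Cy3, per the file headers. A value table of the authors has log2 ratios within 0.005 of these log10 ratios once turned to log2, with column medians of 0. Its further centring, if any, is unknown. Deposited flags mark spots well above background, saturated spots and outliers.

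Median signals were corrected with normexp (offset 50), normalized by loess within arrays with control spots at weight 0 and by Aquantile between arrays, in limma 3.58.1 under R 4.3.3. The steps were tested on simulated data. The offset of 50 shrinks the ratios of dim genes. Control spots (3671 per array) and outlier spots (197 fasted, 216 fed) were left out. No gene spot was saturated. A gene is its brightest probe, measured where at least 50% of its spots were well above background in each channel compared. RefSeq accessions were named through the GRCm38.p6 gene table, for 26762 of 55681 probes. The array grid names mm9, so that table gave names and gene order only. The number of arrays limits the precision. Members were named past 1.5-fold, with all pools given past 2-fold. Genes and lists were chosen with earlier results of these data known. The 7 alternatives are given at the end.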

Additional observations from a re-analysis of the deposited data

How the results depend on the processing

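Over 5 comparisons, 56 values were recomputed under 7 alternatives, and 49 stayed within 1.5 times the count or within the technical spread of the median. Some of the 49 could not have moved. All 38 genes were measured in all 4 pools, so keeping only genes measured in all 4 channels changed nothing. The authors' value table and the scanner-processed signals hold nearly the same KO over WT ratios, so they are not separate checks. The 7 values that moved came from 2 choices. With each array centred on its measured genes in place of loess, the KO over WT median of the 38 genes became 0.34 with 7 genes 1.5-fold apart in fasted liver and 0.42 with 11 in fed liver, all higher in KO. Relative to all genes 4 of these passed in fasted and 8 in fed liver, and the share over all genes was not counted. That setting leaves in any trend of the dye ratio with brightness. With KO always in Cy5, such a trend and a genotype difference of bright genes cannot be told apart. Without normalization between arrays, the fasting median became 0.44 in KO and 0.39 in WT, and the counts became 12 in KO (12 higher and 0 lower, against 2 and 6) and 13 in WT (13 higher and 0 lower, against 2 and 2). C8a, C8b, C9, Cpb2, F11 and Hc were then no longer 1.5-fold lower in KO, nor C9 and F11 in WT, while the median of all measured genes moved to 0.44 in KO and 0.46 in WT. Relative to that shift, 6 of the 8 genes counted in KO and 4 of 4 in WT still passed 1.5-fold. The 6 attack complex genes lay below 0 with fasting in both genotypes under the 6 alternatives that give a fasting ratio, taken relative to all genes; the authors' value table gives none. With the mean over probes C8a was no longer 1.5-fold lower in KO and F10 was. In KO, Hrg fell under 1.5-fold relative to all genes with an offset of 10, with scanner-processed signals and with centring. No paired analysis was possible because each group had 1 pool. No pool could be left out for the same reason, so neither the spread between mice nor that between pools is known.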

Other observations

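Acute-phase genes, which the liver switches on in inflammation together with several complement and clotting genes, were also read. Of 11 such genes, Saa3 (log2 1.08) and Lcn2 (0.81) exceeded 1.5-fold in fasted KO over fasted WT liver, and none was lower by that much, where 1.26% of all measured genes were higher and 1.48% lower. In fed liver Lcn2 was lower in KO (-0.68). Lcn2, lipocalin 2, which starves bacteria of iron, had log2 signals of 11.94 in the fasted KO pool and 11.12 in the fasted WT pool, and of 12.04 in the fed KO pool and 12.72 in the fed WT pool. The fed WT pool was thus the highest and the fasted WT pool the lowest. Beside it, the neutrophil markers S100a8 and S100a9 were at 0.46 and -0.01 for KO over WT in fasted liver and at -0.47 and -0.61 in fed liver, and their part in the Lcn2 values was not tested. Apcs, the gene of serum amyloid P, was at 0.42 for KO over WT in fasted and 0.10 in fed liver. Hamp, the iron hormone hepcidin, was at -0.42 and -0.43, and Hp, haptoglobin, at 0.39 and 0.49.

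Among 10 transcription factors that act on liver genes, Cebpd was 3.26-fold higher in the fasted than the fed KO pool (1.70) and 2.88-fold higher in the fasted than the fed WT pool (1.53). Cebpb was at 0.17 in KO and 0.77 in WT, Stat3 at -0.68 and -0.48, and Hnf4a at 0.34 and 0.52. Between genotypes Cebpa was 1.51-fold lower in the fasted KO pool (-0.59) and Foxa2 1.51-fold lower in the fed KO pool (-0.59).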
